A study of Mus musculus with 24 samples.

Results

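Potassium channel and HCN channel genes were followed through RNA-seq counts from the cerebellum (CB) and hippocampus (HC) of mice carrying the 16Gso translocation and of wild-type (WT) mice. The genes were chosen by symbol, as those beginning with Kcn followed by a family letter and number or name, together with the HCN channel genes. The pattern matched 97 of 25793 listed symbols, and with *Kcnj8*, *Kcnj13* and *Kcne2* left out by the rule 94 genes remained. They comprised 30 pore subunits of voltage-gated potassium channels, 10 electrically silent Kv modifier subunits, 14 auxiliary subunits and 8 pore subunits of calcium- or sodium-activated channels. The others were 13 inward rectifiers, 14 leak (tandem-pore) channels, 4 HCN channels and *Kcnq1ot1*, a noncoding RNA transcribed antisense to *Kcnq1* that the symbol rule also took in. Of the 94, 82 had at least 10 reads in every library of at least 1 group, 50 of them in all 8 groups and 32 in some. The remaining 12 were *Kcna7*, *Kcna10*, *Kcne1*, *Kcne3*, *Kcng3*, *Kcnj1*, *Kcnj15*, *Kcnk7*, *Kcnk15*, *Kcnk16*, *Kcnk18* and *Kcnn4*, which stayed below this level in every group.

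Potassium channels let potassium leave the cell, which sets the resting potential, ends the action potential and spaces the spikes of a train. Voltage-gated channels open on depolarization, calcium- and sodium-activated channels open when those ions build up inside the cell, inward rectifiers pass current best near rest, and leak channels are open at rest. HCN channels open on hyperpolarization, pass sodium as well as potassium, and help pace firing and shape dendritic signals in Purkinje cells and in hippocampal pyramidal neurons.

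The design crossed genotype, region and age, with 3 male mice in each of 8 groups and 1 library per mouse and region. The groups were WT CB and 16GsoT/T CB at postnatal day 14 (P14) and day 35 (P35), and WT HC and 16GsoT/T HC at the same ages. 16GsoT/T mice are homozygous for a reciprocal translocation between chromosomes 5 and 8, whose breaks lie between *Auts2* and *Galnt17* (listed as *Wbscr17*) and upstream of *Sox1*. The labels give the strain background as C57BL/6, while the study's methods give C57BL/6 crossed with C3H/He (B6C3), and both genotypes are described alike in this respect. According to those methods the homozygotes came from homozygous parents, and the parents of the WT mice are not given there. The translocation is present in every cell, and the samples are whole dissected regions.

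Most of these genes share 1 short stretch of protein, the selectivity filter, in which a glycine, an aromatic residue and a glycine line the narrowest part of the pore. The stretches below show it for members of several pore families whose expression is described here, each as 51 bases of coding strand with the 3 codons for glycine, aromatic residue and glycine in capitals.
*Kcna2*, a Kv1 pore subunit of axons, chr3:106908124-106908174, plus strand: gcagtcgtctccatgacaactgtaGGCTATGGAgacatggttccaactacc
*Kcna5*, a Kv1 pore subunit, chr6:126483745-126483795, minus strand: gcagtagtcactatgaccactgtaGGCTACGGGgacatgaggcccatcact
*Kcnt1*, the sodium-activated channel Slack, chr2:25749869-25749919, plus strand: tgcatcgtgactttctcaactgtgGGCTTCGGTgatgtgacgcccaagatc
*Kcnj3*, a G-protein-gated inward rectifier, chr2:55290020-55290070, plus strand: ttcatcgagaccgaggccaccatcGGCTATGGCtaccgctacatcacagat
*Kcnk3*, the leak channel TASK-1, chr5:30924557-30924607, plus strand: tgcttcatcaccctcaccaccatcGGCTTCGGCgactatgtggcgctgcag
Positions are those of the mouse build NCBIM37 with Ensembl gene models, and the *Kcnk3* stretch is the second of its pore loops. The aromatic codon was TAT or TAC (tyrosine) in *Kcna2*, *Kcna5* and *Kcnj3* and TTC (phenylalanine) in *Kcnt1* and in this loop of *Kcnk3*. Counted as codons for threonine, serine or cysteine, any residue, glycine, then tyrosine, phenylalanine or leucine, then glycine, the motif was present in the longest coding sequence of 79 of 92 members with one. It was found in all 4 HCN, all 13 inward-rectifier and all 14 leak channel genes, the last with at least 2 matches each, in 29 of 30 voltage-gated and 7 of 8 calcium- or sodium-activated pore genes and in 3 of 14 auxiliary subunits. The 3 auxiliary genes with a match were *Kcnab1*, *Kcnab2* and *Kcnab3*, cytoplasmic beta subunits and not pore subunits. The same letters were found in 5.63% of the other coding genes (1223 of 21727). A match alone therefore does not show a selectivity filter. Among the pore genes, only *Kcnh8* and *Kcnma1* had no match, and their coding sequences in these models held only 215 and 232 codons. A missing match in such short sequences does not show that the filter is absent.

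Reads assigned to genes ranged from 2563968 to 40564789 per library, highest in P14 CB and lowest in P35 HC. In P35 CB they made up 37.61% to 37.74% of all reads in WT and 42.28% to 42.39% in 16GsoT/T libraries. In P14 CB the share was 65.8% to 66.03% in WT and 64.82% to 68.13% in 16GsoT/T libraries. In P14 HC it was 41.04% to 41.4% and 40.66% to 42.28%. The high share in P14 CB cannot be told apart from region at P14 or from age in CB. In P35 CB the share was apart between the genotypes and cannot be told apart from genotype. Reads without a unique alignment were apart there too, at 10.61% to 11.22% in WT and 7.896% to 8.636% in 16GsoT/T libraries. Region always coincided with sequencing lane and genotype with lane in P14 HC, so these cannot be told apart there, and the ages were sequenced in separate lanes. *Wbscr17*, at the breakpoint on chromosome 5, was lower in 16GsoT/T mice in P14 CB (log2 fold change -1.05, adjusted p = 0.000563), P35 CB (-0.31, 0.00835) and P14 HC (-0.46, 0.0163), and was -0.62 (0.12) in P35 HC. Markers of Purkinje cells (7 of 7 tested) and granule cells (8 of 8) were higher in WT CB and 9 of 9 hippocampal neuron markers in WT HC at both ages. Some libraries stood apart. WT library N4 of P14 HC had a summed striatal marker level of 751 CPM (reads of a gene scaled to a common library size) against 160 to 170 in the other WT libraries, and WT library N10 of P35 HC had a thalamic sum of 307 against 95.4 to 120 in the other libraries of its age and region. In bulk tissue, fewer cells of a type and less RNA per cell cannot be told apart, and p-values measure the spread between 3 mice a group. Adjusted p-values are from edgeR's quasi-likelihood test over all genes tested, and a gene is called at 0.05 or below.

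Levels were compared between genes per kilobase of exon. In WT CB, *Kcnc1*, whose Kv3 channels repolarize fast-spiking neurons, was 52.4 ± 4.89 CPM per kilobase (SD, n = 3) at P14 and 80.8 ± 4.35 at P35. The leak channel *Kcnk1* was 95.5 ± 9.95 and 77.7 ± 4.52, and the glial inward rectifier *Kcnj10* 48.9 ± 4.5 and 64 ± 4.25. At P14 *Kcnk1* was above *Kcnc1* in every library, while at P35 their ranges overlapped, 72.6 to 81.4 and 77.3 to 85.6. In WT HC, *Kcnab2*, a cytoplasmic beta subunit of Kv1 channels, was highest, at 87.6 ± 8.27 at P14 and 138 ± 3.95 at P35. *Kcnj10* at 47.3 and *Kcnk1* at 36.2 were also among the first 4 in P35 HC.

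**Figure D1:**
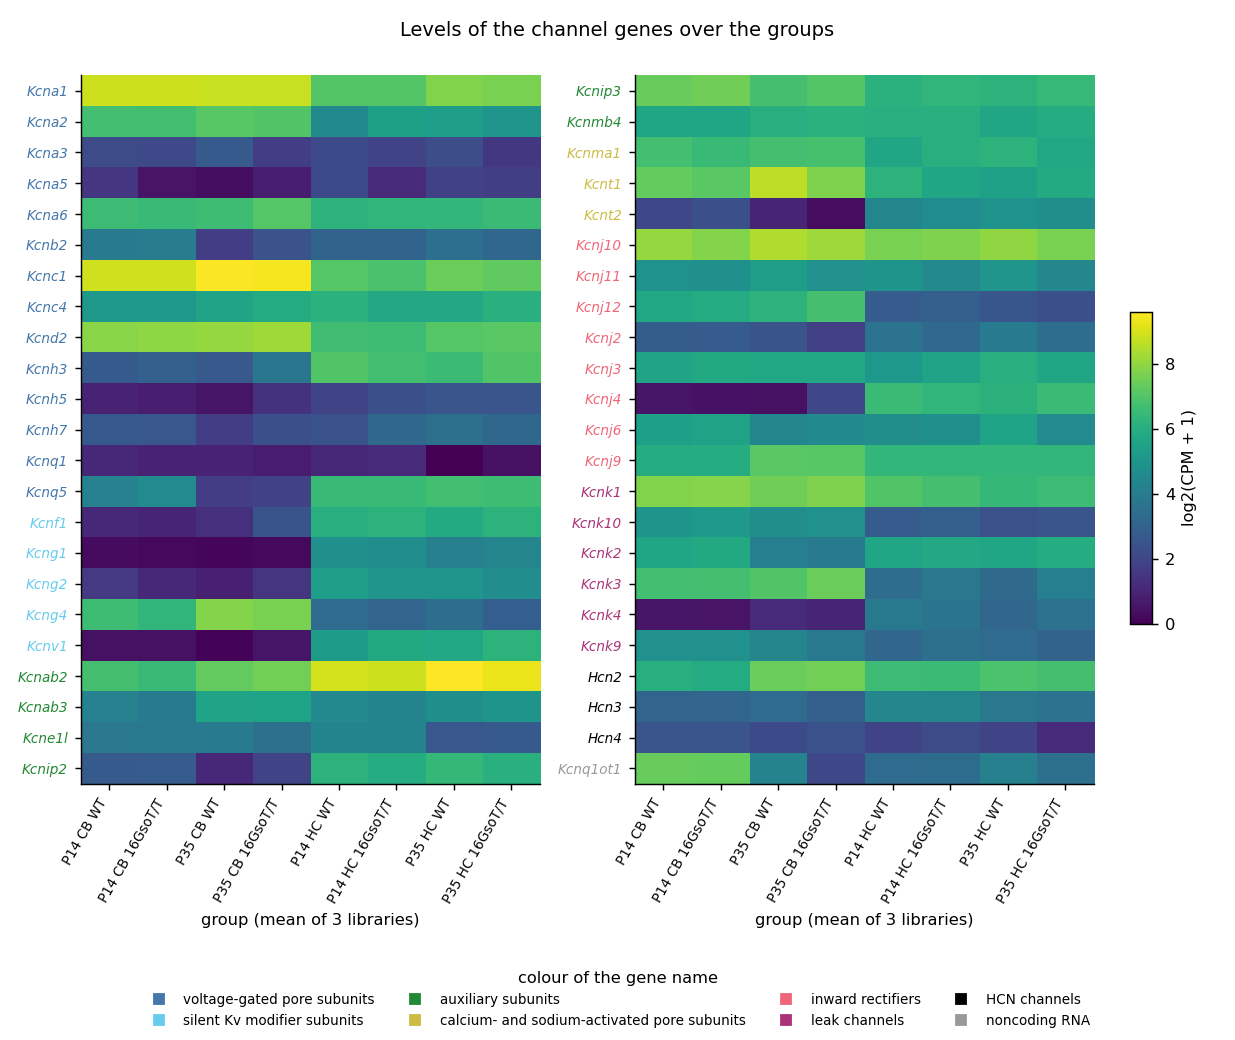
Mean level of the 46 expressed channel genes named in the text (1 per line, ordered by role) in the 8 groups (columns), as log2(CPM + 1) with CPM scaled over all 24 libraries. *Kcnc1* is high in CB and *Kcnab2* is high in HC, while *Kcnv1* and *Kcng1* are near the bottom in every CB group.

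Region was compared in WT mice within each age, CB against HC. At P14, 70 of 82 channel genes tested were called, 29 higher in CB and 41 higher in HC, against 77.2% of all genes tested. At P35, 60 of 70 were called, 28 higher in CB and 32 in HC, against 56% of all genes. The 3 CB and 3 HC libraries did not overlap for 70 of 82 channel genes at P14 (79.8% of all genes) and for 58 of 70 at P35 (62.4%). Among 70 members tested at both ages, 46 were called the same way at both ages, 20 toward CB and 26 toward HC, where 41.7% of all genes were.

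The members most strongly higher in HC were an inward rectifier and silent Kv subunits, which form no channel alone but alter Kv2 channels. *Kcnj4*, an inward rectifier of forebrain neurons, was 90.8, 82.1 and 104 CPM in the P14 HC libraries and 0.459, 0.493 and 0.434 in the CB libraries. Its log2 fold change (CB over HC) was -7.61 (SE 0.145, adjusted p = 6.04e-11), and at P35 it was -7.43 (0.291, 2.46e-10). *Kcnv1*, a silent subunit, was 33.9, 32.7 and 47.5 CPM in P14 HC against 0.402, 0.116 and 0.477 in CB (-6.89, SE 0.282, adjusted p = 9.21e-09). No CB library came near an HC library for either gene. At P35, *Kcnv1* was 49.7, 53.3 and 58.9 CPM in HC and had 1 read in all 3 CB libraries together, a ratio of 1090 (95% counting interval 195 to 43100). *Kcng1*, another silent subunit, was 22, 13.9 and 16.1 CPM in P35 HC and had 2 reads in CB, a ratio of 175 (48 to 1460), and at P14 its fold change was -6.82 (0.307, 1.72e-08). These intervals cover counting error only. Of the silent Kv subunits tested, 8 of 9 at P14 and 7 of 8 at P35 were called toward HC, where 38.4% and 28.5% of all genes were. Their median log2 fold changes were -2.86 and -3.90, where the medians over all genes were 0.0077 and 0.0096.

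*Kcng4* was the exception in this role group. It was 10.5, 8.38 and 9.09 CPM in P14 HC and 97.5, 96.1 and 94.6 in P14 CB (3.36, SE 0.0884, adjusted p = 4.52e-10). At P35 it was 6.88, 12.5 and 10.9 against 211, 217 and 222 CPM (4.42, SE 0.138, 2.99e-11). CB libraries were thus higher without overlap at each age.

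Voltage-gated pore subunits divided between the regions, 9 toward CB and 14 toward HC of 28 tested at P14, and 8 and 10 of 23 at P35. Over all genes 38.8% lay toward CB and 38.4% toward HC at P14, and 27.5% and 28.5% at P35. Among those higher in CB, *Kcnc1* was 125, 138 and 135 CPM in P14 HC against 427, 504 and 504 in CB (1.85, SE 0.0863, adjusted p = 2.24e-08), and 181, 168 and 175 against 705, 766 and 694 at P35 (2.05, SE 0.0828, 3.26e-10). CB libraries were well above HC libraries at both ages. The Kv1 genes *Kcna1* and *Kcna2*, which limit excitability at axons and terminals, also lay toward CB, at 1.82 and 2.16 at P14 and 0.98 and 1.74 at P35. *Kcnd2*, the A-type channel of dendrites, was 1.20 and 0.92. On the HC side, *Kcnh3*, an ether-a-go-go family subunit of the forebrain, was 125, 110 and 151 CPM in P14 HC against 4.53, 6.23 and 5.95 in CB (-4.53, SE 0.15, adjusted p = 2.13e-09) and -4.11 (SE 0.141) at P35. *Kcnq5*, an M-current gene, was 73, 90.7 and 98.9 CPM in P14 HC against 16.6, 18.4 and 18.9 in CB (-2.29). At P35 it was 105, 98.2 and 106 against 2, 1.21 and 3.68 (-5.57, SE 0.199). HC libraries were higher than every CB library for *Kcnh3* and *Kcnq5* at both ages.

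Inward rectifiers and leak channels held further CB-high genes. *Kcnk3* was 8.33, 10 and 11.4 CPM in P14 HC against 98, 104 and 104 in CB (3.36, SE 0.1, adjusted p = 1.06e-09), and 15.6, 6.26 and 5.75 against 122, 124 and 126 at P35 (3.73). Its relative *Kcnk10*, the leak channel TREK-2, was 2.36 and 2.53, and the inward rectifier *Kcnj12* was 3.09 and 3.82. *Kcnk4*, the leak channel TRAAK, lay toward HC, at -4.78 and -2.74. *Kcnj10*, which clears potassium in astrocytes, differed little, 0.37 and 0.38 toward CB.

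Of the auxiliary subunits, *Kcnip2*, a calcium-binding partner of A-type channels, was -3.69 at P14 and 83.9, 76.4 and 95.2 CPM in HC against 0.771, 0.603 and 2.03 in CB at P35 (-6.32, SE 0.231, adjusted p = 1.28e-10). Among the channels gated by internal ions, *Kcnt1* was 65.4, 60.4 and 93.6 CPM in P14 HC against 156, 156 and 160 in CB (1.10, SE 0.135). At P35 the gap was wider, 59, 41.9 and 32.5 against 382, 382 and 383 (3.10, SE 0.147). The large-conductance calcium-activated channel gene *Kcnma1* was 1.05 and 0.49. CB libraries lay above HC libraries for *Kcnt1* and *Kcnma1* at each age.

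The HCN channels did not share 1 pattern. *Hcn2*, widely expressed in the brain, was 97.9, 96.3 and 93.1 CPM in P14 HC against 63.6, 63.8 and 64.2 in CB (-0.58, SE 0.0582, adjusted p = 5.94e-06). At P35 *Hcn2* was 137, 104 and 111 against 154, 163 and 175 (0.48, SE 0.102, 0.00141). Its order between regions was therefore opposite at the 2 ages, with no overlap at either. *Hcn3* lay toward HC at both ages (-1.42 and -0.60), and *Hcn4*, the form best known from the sinoatrial node, was called toward CB only at P14 (0.69), with 8.2, 0 and 0.575 CPM in P35 HC against 4.01, 3.5 and 2.76 in P35 CB (0.20, adjusted p = 0.836).

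*Hcn2* was 1 of 9 members called in opposite ways at the 2 ages, against 5.59% of all genes (775 of 13871). Those named were chosen after their values were seen. Higher in HC at P14 and in CB at P35 were *Hcn2*, the Kv1 beta subunit *Kcnab3* (-0.30, then 0.80), the KCNE-type auxiliary subunit *Kcne1l* (-0.51, then 1.39), the G-protein-gated rectifier *Kcnj9* (-0.41, then 0.75) and the calcium-activated channel subunit *Kcnmb4* (-0.39, then 0.31). The reverse held for *Kcnb2*, a Kv2 delayed rectifier, and for the G-protein-gated *Kcnj6* and *Kcnj3*. *Kcnb2* was 7.47, 7.3 and 8.18 CPM in P14 HC against 12.3, 15.6 and 13.8 in CB (0.86), and 9.26, 11.7 and 10.6 against 2.47, 1.93 and 2.39 at P35 (-2.22, SE 0.256). *Kcnj6* went from 0.71 to -1.25 and *Kcnj3* from 0.48 to -0.42. The libraries of the regions overlapped for *Kcnmb4* at P14 and for *Kcnj3* at P35. The *Kcnj3* call at P35 was lost without WT library W481 or W483 of HC or M27 or M28 of CB. Over all 6 fits that left out a library, its value lay between -0.60 and -0.28.

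**Figure D2:**
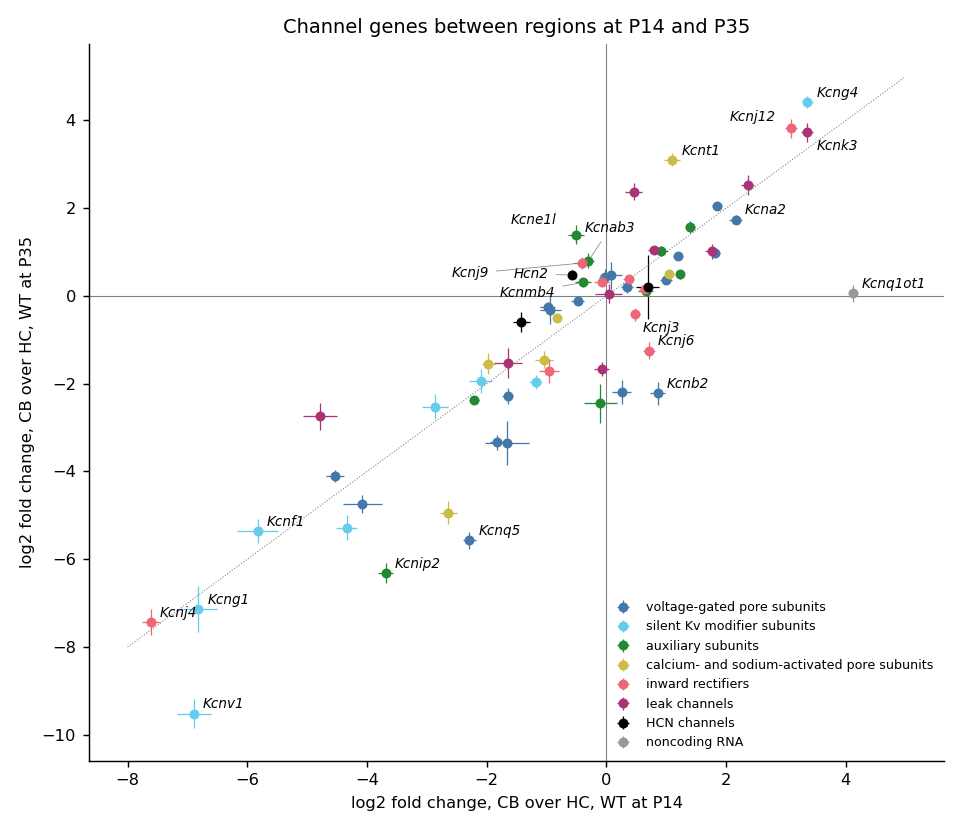
Log2 fold change between regions (CB over HC, WT mice) at P14 on the x axis and P35 on the y axis for 65 channel genes tested at both ages, with bars of 1 SE and colour by role. Points off the dotted line of equal change include *Kcnq1ot1* (4.12 at P14, 0.06 at P35), and *Kcnv1* and *Kcng1* at P35 rest on 1 and 2 CB reads.

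*Kcnq1ot1*, the noncoding member, changed place most with age. It was 10.3, 9.29 and 8.45 CPM in P14 HC against 165, 159 and 164 in CB (4.12, SE 0.0827, adjusted p = 8.46e-11). At P35 it was 12.7, 18.2 and 21 against 20.7, 16.9 and 16.2 (0.06, adjusted p = 0.822). CB libraries were far above HC libraries at P14 and overlapped them at P35. P14 CB was also the group with the highest share of reads on genes. The part of that library difference in the *Kcnq1ot1* level was not tested.

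Levels at the 2 ages, scaled together over all 24 libraries, are given without a test because age coincided with sequencing lane. Within CB, age also coincided with the share of reads on genes. In WT CB, *Kcnt1* was 157 CPM on average at P14 and 391 at P35, *Kcng4* 96.1 and 221, *Hcn2* 63.9 and 168, and *Kcnj9* 60.5 and 140. *Kcnq1ot1* was 163 and 18.3, *Kcnq5* 18 and 2.35, *Kcnb2* 13.9 and 2.31 and the leak channel *Kcnk2* 48.4 and 16.5. In WT HC, *Kcnj3* was 33.9 and 65.9, *Kcnj6* 25.4 and 46.8, and *Kcne1l* 18.9 and 5.11.

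Genotype was compared within each region and age, 16GsoT/T over WT. The number of channel genes called was 1 of 81 tested in P14 CB, 18 of 61 in P35 CB, 3 of 77 in P14 HC and 0 of 74 in P35 HC. Over all genes, 0.506%, 35.3%, 0.814% and 0.135% were called in these 4 comparisons. Libraries of the genotypes did not overlap for 20 of 81, 25 of 61, 17 of 77 and 13 of 74 channel genes, against 13.6%, 47.3%, 23.8% and 13.1% of all genes. Median log2 fold changes of the channel genes were -0.0282, 0.0705, -0.0291 and -0.1031, beside 0.0022, -0.004, 0.0023 and -0.0071 over all genes. In P35 CB the share of channel genes called was thus no higher than the share of all genes, with 9 higher and 9 lower.

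At P14 the single call in CB was *Kcna5*, a Kv1 pore subunit better known from heart and vessels. It was 2.12, 1.36 and 2.08 CPM in WT and 0.372, 0.453 and 0.456 in 16GsoT/T libraries (log2 fold change -2.10, SE 0.271, adjusted p = 0.00899). Every 16GsoT/T library was below every WT library. The call was lost without WT library 1, and the fold change lay between -2.29 and -1.98 when each library was left out in turn. *Kcna5* was also called in P14 HC, where it was 4.23, 3.27 and 3.21 CPM in WT and 1.53, 1.32 and 0.977 in 16GsoT/T mice (-1.48, SE 0.255, adjusted p = 0.048). That call was lost in each of 6 fits that left out a library (-1.63 to -1.32).

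The Kv1 genes next to *Kcna5* gave values near 0. *Kcna5* lies on chromosome 6 from 126482571 to 126485573 (NCBIM37, minus strand), with *Kcna1* from 126586481 to 126595819 and *Kcna6* from 126658347 to 126690680 on the same strand. In P14 CB *Kcna1* was 0.00 (SE 0.0983) and *Kcna6* -0.13 (0.101), and in P14 HC they were 0.00 (0.0664) and 0.10 (0.0832). At P35, *Kcna5* had 3, 0 and 2 reads in WT CB and 3, 4 and 8 in 16GsoT/T CB, too few to test, and in HC it was 3.04, 2.9 and 1.67 CPM against 2.64, 1.16 and 3.32 (-0.04), with overlap.

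P14 HC, where genotype coincided with lane, held a pair of higher calls. *Kcna2* was 19.5, 22.6 and 28.2 CPM in WT and 42.6, 41.8 and 44 in 16GsoT/T mice (0.87, SE 0.122, adjusted p = 0.0256). The lowest WT value was that of N4, the library with the high striatal markers. *Kcnj3* was 34.5, 35 and 34.1 against 47.8, 44.3 and 46.5 (0.42, SE 0.0665, 0.0379). Both sets of libraries were apart, and neither call held throughout. The *Kcna2* call was lost without A13, A14, N4 or N5, and its value was 0.75 to 1.02 over all 6 fits. That of *Kcnj3* was lost in each of 6 fits (0.39 to 0.45). The summed oligodendrocyte markers were 3010 to 5160 CPM in these WT libraries and 5030 to 8150 in 16GsoT/T libraries, with 1 WT library above the lowest 16GsoT/T library. None of the 8 oligodendrocyte markers was called. The part of these cells in the result was not tested.

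In P35 CB the member with the largest change was *Kcnq1ot1*. It was 21.3, 17.3 and 16.7 CPM in WT and 2.4, 3.26 and 4.03 in 16GsoT/T mice (-2.49, SE 0.199, adjusted p = 2.61e-06). *Kcnt1*, which opens as sodium enters during firing, was 393, 393 and 394 CPM in WT and 216, 202 and 208 in 16GsoT/T mice (-0.91, SE 0.0572, 3.32e-07). Libraries of each genotype lay close together for *Kcnt1*, and the groups were far apart for both genes. In P35 CB the share of reads on genes also differed between genotypes without overlap. The part of that library difference in the P35 CB genotype calls was not tested.

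Of the inward rectifiers tested in P35 CB, 3 of 8 fell and 1 rose, where 18% of all genes fell and 17.4% rose. *Kcnj11*, the pore of ATP-sensitive channels, was 37.9, 42.1 and 41.5 CPM in WT and 26.9, 29.3 and 25.9 in 16GsoT/T mice (-0.56, SE 0.0944, adjusted p = 0.000693). *Kcnj10* was 342, 327 and 375 against 262, 304 and 302 (-0.27, SE 0.0744, 0.0151). *Kcnj2*, a classical inward rectifier also found in vessel walls, was 3.97, 4.95 and 4.93 against 1.89, 2.83 and 2.83 (-0.86, SE 0.265, 0.0241). *Kcnj12*, a close relative of *Kcnj2*, rose. It was 72.8, 75.5 and 70.5 CPM in WT and 102, 101 and 117 in 16GsoT/T mice (0.55, SE 0.0762, 0.000185). None of the 4 overlapped between genotypes. Summed endothelial and mural cell markers were also lower, 174 to 187 CPM in WT and 105 to 111 in 16GsoT/T libraries (7 of 7 markers called lower). Astrocyte and Bergmann glia markers summed to 3520 to 3970 and 3570 to 3830, with 2 of 7 called higher and 1 lower. Their part in these results was not tested.

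Voltage-gated pore subunits of P35 CB moved both ways, 5 higher and 3 lower of 22 tested, beside 17.4% and 18% of all genes. The higher ones included the Kv3 gene *Kcnc4* and the Kv1 gene *Kcna6*. *Kcna6* was 97.1, 103 and 93.1 CPM in WT and 134, 133 and 129 in 16GsoT/T mice (0.43, SE 0.0638, adjusted p = 0.000307). *Kcnc4* was 44.4, 52.6 and 45.7 against 54.7, 62.5 and 60.4 (0.31, SE 0.0895, 0.0176). Both rose without overlap. *Kcnb2* was 2.54, 1.98 and 2.46 against 4.46, 5.24 and 3.73 (0.96, SE 0.268, 0.0153). *Kcnh3* was 5.24, 6.19 and 5.12 against 12.3, 8.08 and 17.4 (1.17, SE 0.26, 0.00417) and 0.86 without library C21, its highest. C21 also stood out for the HC-high genes *Kcnf1*, at 11.5 CPM against 0.514 and 1.7 in the other 16GsoT/T libraries, and *Kcnj4*, at 7.16 against 1.2 and 0.85. The summed hippocampal neuron markers were 136 CPM in C21, 138 and 143 in the other 16GsoT/T libraries and 113 to 133 in WT libraries, and their part was not tested.

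Of the lower voltage-gated genes, the Kv1 gene *Kcna3* was 6.82, 5.57 and 4.36 CPM in WT and 1.2, 3.54 and 2.24 in 16GsoT/T mice (-1.24, SE 0.332, adjusted p = 0.0122). Every 16GsoT/T library was below every WT library. Of the panel genes followed in every comparison, *Kcna1* (-0.04), *Kcna2* (-0.14), *Kcnc1* (-0.09), *Kcnd2* (0.15), *Kcnma1* (0.03), *Kcnj3* (0.03) and *Hcn2* (0.12) were not called.

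In P35 CB, 1 of 8 leak channels tested rose and 1 fell, and 2 of 9 auxiliary subunits rose. Over all genes 17.4% rose and 18% fell. *Kcnk3* rose, from 125, 127 and 130 CPM in WT to 162, 176 and 174 in 16GsoT/T mice (0.42, SE 0.0601, adjusted p = 0.000216). Its relative *Kcnk9* (TASK-3), which can join it in 1 channel, fell, from 17.1, 19.1 and 22.8 to 16.6, 12.8 and 10.9 (-0.55, SE 0.166, 0.0218). The *Kcnk9* groups were separated by the narrow gap from 16.6 to 17.1. *Kcnab2* was 142, 167 and 155 against 181, 196 and 180 (0.27, SE 0.0701, 0.0109), and the calcium-binding A-type channel partner *Kcnip3* was 109, 119 and 91.4 against 125, 122 and 142 (0.28, SE 0.0934, 0.0358). Of the HCN channels, *Hcn3* came nearest to a call, at 9.68, 8.54 and 9.67 against 4.97, 6.95 and 7.75 (-0.49, SE 0.197, 0.0724), and of the silent Kv subunits *Kcng4* did (-0.15, 0.0574).

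**Figure D3:**
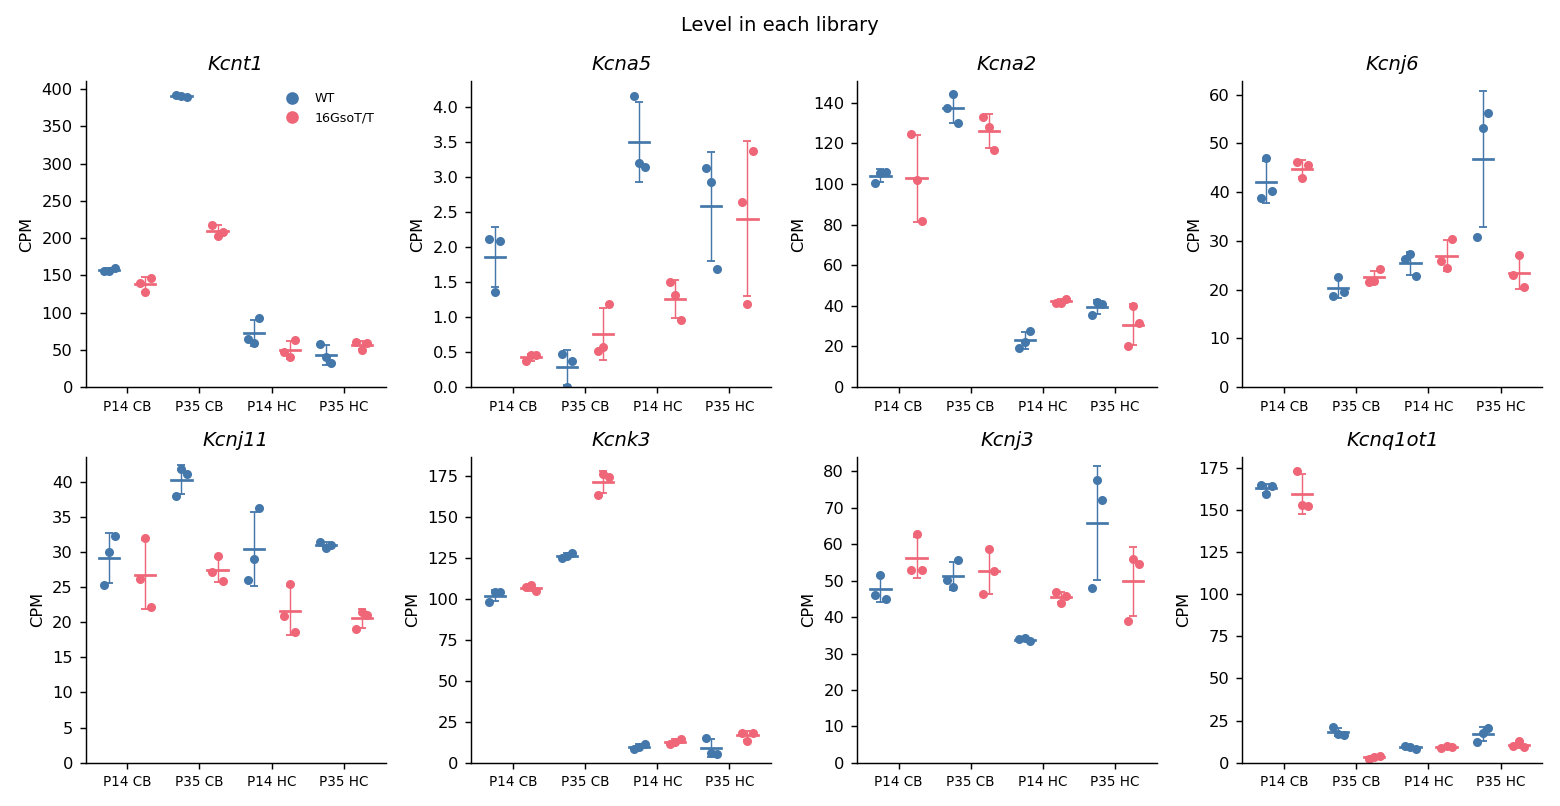
CPM of 8 channel genes in each of the 24 libraries (points), scaled over all 24, by age and region (x axis), with horizontal bars at group means and error bars of 1 SD (n = 3), WT in blue and 16GsoT/T in red. In P35 CB the WT libraries of *Kcnt1* sit at 389 to 393 CPM and the 16GsoT/T libraries at 203 to 218.

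Of the 15 calls described in P35 CB, 7 held when each of the 6 libraries was left out in turn, those of *Kcnq1ot1*, *Kcnt1*, *Kcnj11*, *Kcnj12*, *Kcnk3*, *Kcna6* and *Kcnh3*. The others are given with the smallest change seen in any of those 6 fits. *Kcnab2* and *Kcna3* were lost without WT library M27 (0.21 and -0.95), *Kcnj10* without M29 (-0.20), and *Kcnb2* without C20 or M28 (0.82). *Kcnj2* was lost without C19, M28 or M29 (-0.70), *Kcnip3* without C21, M27 or M29 (0.19), and *Kcnc4* without C20, C21, M27 or M29 (0.27). *Kcnk9* was lost without C20, C21, M28 or M29 (-0.42). With a fold change of at least 1.5 required as well, 6 of the 18 calls remained, 2 higher (*Kcnh3*, *Kcnb2*) and 4 lower (*Kcnq1ot1*, *Kcna3*, *Kcnt1*, *Kcnj2*).

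**Figure D4:**
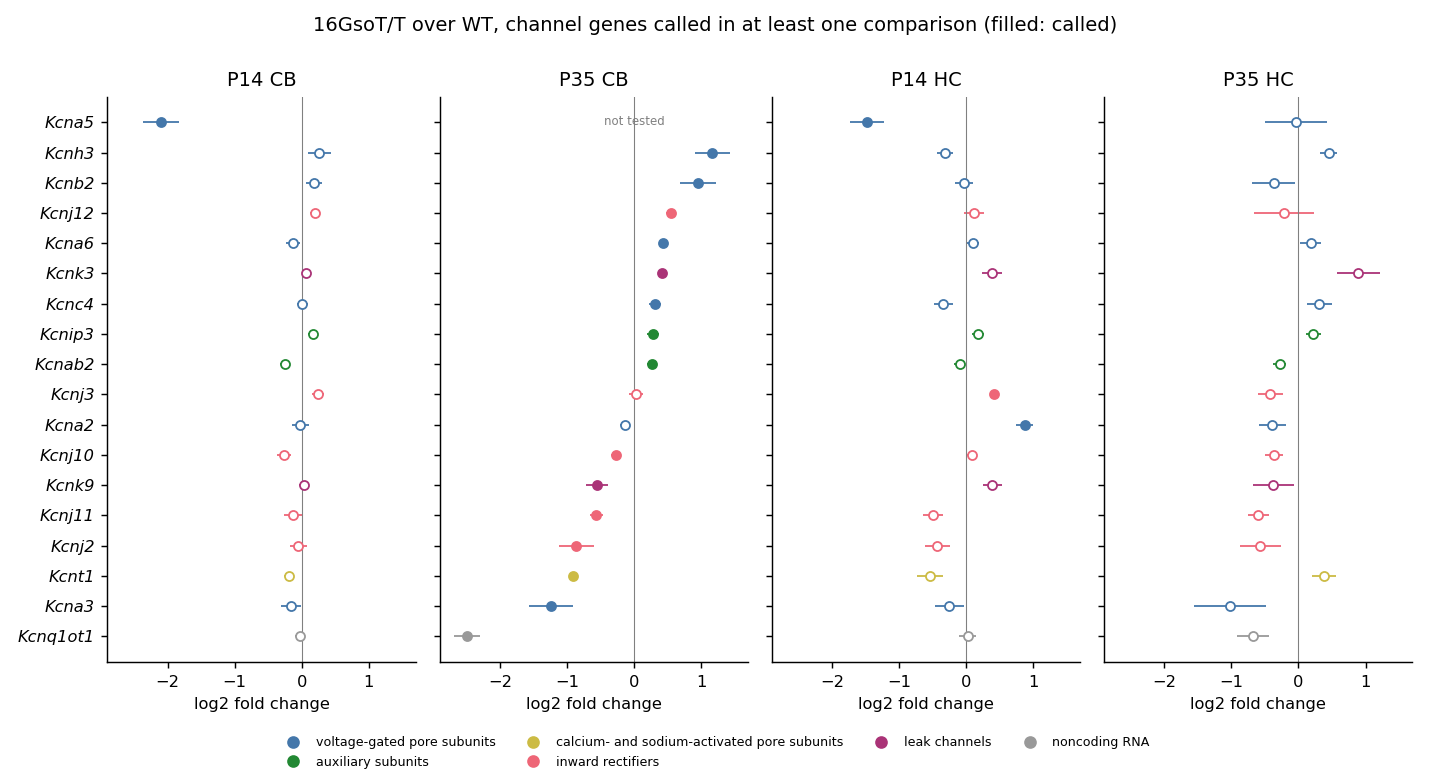
Log2 fold change, 16GsoT/T over WT, with 1 SE, for 18 channel genes called in at least 1 genotype comparison (1 per line), in each of the 4 comparisons (panels, filled where called). The 15 shown as called in P35 CB spread from -2.49 (*Kcnq1ot1*) to 1.17 (*Kcnh3*) in P35 CB, and none of the 15 was called in P14 CB, P14 HC or P35 HC.

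In P35 HC no member was called by edgeR, while 16 of 74 had an unadjusted p under 0.05 (1179 of 13343 genes in all) and DESeq2 called 1. That gene was *Kcnj6*, the GIRK2 subunit of channels opened by G-protein-coupled receptors. It was 29.9, 52.7 and 55.7 CPM in WT and 22.8, 26.3 and 20.2 in 16GsoT/T mice (-1.00, SE 0.217, adjusted p = 0.135 by edgeR's quasi-likelihood test and 0.0163 by DESeq2). The lowest WT library was N10, the 1 with the high thalamic markers. N10 was also the only WT library with a single index tag, as all 3 16GsoT/T libraries have, while W481 and W483 have dual tags. With a term for this library series *Kcnj6* was -0.38 (SE 0.218), which compares the 16GsoT/T libraries with N10 alone. Without N10 the edgeR value was -1.24 (adjusted p = 0.00204) and *Kcnk3* was called at 1.51 (0.0164), but genotype and library series then cannot be told apart. *Kcnk3* was 0.16 (SE 0.295) with the series term. *Kcnj11*, chosen after its values were seen, was 30.4, 30.3 and 30.7 against 18.9, 20.9 and 20.7 (-0.60, SE 0.154, adjusted p = 0.23), and -0.59 (SE 0.215) with the series term. Its groups did not overlap, and in P14 HC, with 26.3, 29.6 and 37.1 against 21.4, 25.7 and 18.9, it was -0.50 (0.145). Choroid plexus markers summed to 253 to 339 CPM in WT and 735 to 2430 in 16GsoT/T libraries of P35 HC (4 of 6 markers called higher), and their part was not tested.

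Differences between genotype effects were tested as interactions. In CB, 16 of 76 members had an effect that differed between the ages, 9 more positive and 7 more negative at P35, against 18.6% of all genes. *Kcnq1ot1* was 165, 159 and 163 CPM in WT and 173, 151 and 152 in 16GsoT/T mice at P14 (-0.03), beside its fall at P35 (difference -2.47, SE 0.183, adjusted p = 4.34e-07). *Kcnt1*, named here because it also differed between regions, was 156, 156 and 159 against 140, 126 and 146 at P14 (-0.19, adjusted p = 0.425), and its difference was -0.73 (SE 0.0875, 5.49e-05). The genotypes did not overlap for *Kcnt1* at P14 either.

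Other members with the largest interactions in CB were low in P35 CB. For *Kcna5* the difference was 3.64 (SE 0.795, adjusted p = 0.00521), on the few P35 reads given above. For the silent subunit *Kcng2* it was 2.03 (SE 0.517, 0.013), with 4, 8 and 4 reads in WT and 7, 17 and 11 in 16GsoT/T libraries at P35, and for *Kcnh5*, an ether-a-go-go subunit, 2.10 (SE 0.609, 0.0261), with 5, 2 and 2 against 8, 9 and 15 reads. For *Kcnt2*, the relative of *Kcnt1*, it was -2.24 (SE 0.68, 0.0314), with 7, 5 and 7 against 0, 3 and 2 reads. At P14 none of *Kcng2* (-0.91), *Kcnh5* (-0.29) and *Kcnt2* (0.32) was called. *Kcnb2* (0.77, adjusted p = 0.0498), *Kcna3* (-1.09, 0.0492) and *Kcnj2* (-0.81, 0.0414) also passed. These calls were lost in 9, 9 and 10 of 12 fits that dropped a library. Over all 12 fits their values were 0.64 to 0.89, -1.53 to -0.80 and -0.91 to -0.66. Those of *Kcnh5* and *Kcnt2* were lost in 4 and 6 fits. The calls of *Kcna5*, *Kcng2* and *Kcnq1ot1* stood when each of the 12 libraries was dropped in turn.

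In HC no member's effect was called as differing between the ages by edgeR (0 of 78, against 0.00666% of all genes), 20 had an unadjusted p under 0.05 (1708 genes in all), and DESeq2 called 4. Without WT library N10 edgeR called 3, *Kcna2* (-1.33), *Kcnj3* (-1.02) and *Kcnj6* (-1.31), but genotype and library series then cannot be told apart in P35 HC.

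At P35, 6 of 76 members had genotype effects that differed between CB and HC, 4 more positive and 2 more negative in CB, against 9.61% of all genes. *Kcnt1* was 56.5, 40.6 and 31.5 CPM in WT HC and 60, 48.8 and 58 in 16GsoT/T HC (0.38, SE 0.185), so the fall in CB gave a difference of -1.29 (SE 0.199, adjusted p = 0.000656). *Kcnq1ot1* in P35 HC was 12.2, 17.7 and 20.3 against 10.1, 12.4 and 9.12 (-0.68), a difference of -1.81 (SE 0.322, 0.00204). For *Kcnab2* the HC value was -0.28 and the difference 0.55 (SE 0.116, 0.00677). For *Kcnj6* the effect was -1.00 in HC and 0.13 in CB, a difference of 1.13 (SE 0.262, 0.0116). With the library-series term the P35 HC effects were -0.01 for *Kcnt1*, -0.22 for *Kcnq1ot1*, -0.28 for *Kcnab2* and -0.38 for *Kcnj6*. For *Kcnip2* it was -0.32 and 1.43, a difference of 1.76 (SE 0.528, 0.0445), a call lost in 7 of 12 fits that each dropped a library (0.99 without C21, 1.41 to 1.77 without M27, M28, N10, W483, B10 or B12). Region coincided with lane in this comparison.

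Partners of these channels that the symbol rule left out were followed as a list of 23 genes. In P35 CB, 4 of 20 tested rose and 3 fell, with a median log2 fold change of 0.10, where 17.4% of all genes rose and 18% fell. *Cntnap2*, which clusters Kv1 channels beside nodes of Ranvier, rose by 0.70 (SE 0.0772, adjusted p = 3.48e-05) and *Dpp6*, an A-type channel partner, by 0.40 (SE 0.0603, 0.00031). Of 23 sodium and calcium channel genes, all tested, 3 rose and 6 fell (median 0.04), beside the same shares of all genes. They were led by *Cacna1e*, the R-type calcium channel, at -0.57 (SE 0.0725, 9.18e-05). In P14 CB, P14 HC and P35 HC the medians were -0.04, -0.03 and -0.09 for the partners and 0.00, -0.04 and -0.13 for the sodium and calcium channels. In P35 CB the summed Purkinje cell markers were 7930 to 8380 CPM in WT and 8360 to 9730 in 16GsoT/T libraries, with 3 of 7 higher, and granule cell markers 5820 to 6330 and 6880 to 7220, with 4 of 8 higher and 1 lower. Their part in the channel results was not tested.

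Some values could hold reads of a neighbour. In the NCBIM37 gene models, exons of *Kcna6*, *Kcnj3*, *Kcnh7*, *Hcn3* and *Kcnmb4* share 2343, 1621, 696, 711 and 693 bases with genes on the opposite strand, and *Kcnq1ot1* is itself antisense to *Kcnq1*. The strand setting used in counting is not given in the sources used here.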

How the data were processed

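RNA from dissected CB and HC of male mice was made into stranded mRNA libraries and sequenced on an Illumina HiSeq. Per the submitters' processing notes, reads were handled with CASAVA 1.8.2, TopHat2 2.0.8 and HTSeq 0.6.1 on NCBIM37, and the authors deposited raw counts per gene symbol, 1 table per age. The library kit is named differently by the labels and the methods. The annotation release and strand setting are not given in the sources used here.

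From these counts, each comparison was fitted on all genes with edgeR 4.0.16 in R 4.3.3 (filterByExpr with a minimum count of 10 and total of 15, TMM scaling, glmQLFit and glmQLFTest), with Benjamini-Hochberg adjustment and calls at 0.05. CPM within a comparison use the scaling of its libraries, and levels across ages that of all 24. Interactions were fitted on 12 libraries. No 2 libraries held identical values. The scripts were tested on simulated data. Alternatives were DESeq2 1.42.0, its size factors, other count filters, a fold limit of 1.5, 1 fit of the 12 libraries of an age, a library-series term in P35 HC and leaving out each library. Every column of counts belonged to a sample.

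Members, lists and tests were chosen with earlier results of these data known. Genes named were, per genotype comparison, up to 10 calls of the largest change each way, per region comparison up to 6, per interaction up to 4, a fixed panel (of which *Kcna1*, *Kcna2*, *Kcnc1*, *Kcnd2*, *Kcnma1*, *Kcnj10*, *Kcnj3* and *Hcn2* are reported) throughout, and up to 3 per pathway list. Others named were chosen after their values were seen. Some members that the rule named are not reported here, though all members are in the counts. Sequences were read from the Ensembl NCBIM37 genome and gene models, and 91 of 94 members had 1 position there. The deposited counts carry no molecular identifiers, so counting intervals cover counting error only.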

Additional observations from a re-analysis of the deposited data

Results flagged for a closer look

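Genotype effects that differed between groups, by an interaction test in edgeR, included these. Between the ages in CB (the effect at P35 minus that at P14, on the log2 scale) the differences were 3.64 for *Kcna5*, 2.10 for *Kcnh5*, 2.03 for *Kcng2*, 0.77 for *Kcnb2*, -2.47 for *Kcnq1ot1*, -2.24 for *Kcnt2*, -1.09 for *Kcna3* and -0.81 for *Kcnj2*. *Kcna5*, *Kcnh5*, *Kcng2* and *Kcnt2* had at most 17 reads in any P35 CB library. Between the regions at P35 (the effect in CB minus that in HC) they were 1.76 for *Kcnip2*, 1.13 for *Kcnj6*, 0.55 for *Kcnab2*, -1.81 for *Kcnq1ot1* and -1.29 for *Kcnt1*.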

How the results depend on the processing

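Counts of channel genes called moved by more than 1.5 times in these cases. DESeq2 gave 2 in P14 CB (*Kcna5* and *Kcnq5*), 7 in P14 HC, 1 in P35 HC and 4 for genotype by age in HC (*Kcna2*, *Kcnh3*, *Kcnj6*, *Kcnq3*). Without a filter on low counts there was 1 in P35 HC, 1 for genotype by age in HC and 11 for genotype by region at P35. The single fit of an age's 12 libraries gave 5 in P14 HC and 1 in P35 HC. The fold limit left 6 in P35 CB, and a minimum of 10 counts in every library, which tests fewer genes, left 10 for genotype by age in CB. The cause of the other shifts was not tested. The shares of all genes called under these settings, or with a library left out, are not given here. These counts, and the DESeq2 counts given above, therefore do not show a shift particular to channel genes.

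Leaving out 1 library at a time gave 0 to 2 calls in P14 CB, 12 to 24 in P35 CB, 0 to 2 in P14 HC, 0 to 2 in P35 HC, 8 to 23 for genotype by age in CB, 0 to 3 for genotype by age in HC, 4 to 9 for genotype by region at P35, and 68 to 72 and 58 to 62 for region at P14 and P35. P14 CB went to 0 without WT 1 and 2 without 16GsoT/T 4, P14 HC to 0 without A13, A14, N4 or N5 and 1 without A18, P35 HC to 2 without N10, and genotype by age in CB to 8 without C21, 9 without M29 and 10 without 16GsoT/T 5.

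Signs changed as follows. With DESeq2 or its size factors *Kcna1* in P14 HC was 0.00 and *Kcnj10* for genotype by age in CB 0.00 (0.01 without the filter). With a library-series term in P35 HC, which leaves N10 as the only WT library of its series, *Kcnj3* went from -0.42 to 0.06, and *Kcnj6*, *Kcnq1ot1*, *Kcnt1* and *Kcnk3* were -0.38, -0.22, -0.01 and 0.16. Leaving out libraries, ranges that crossed 0 were: in P14 CB *Kcna1* -0.10 to 0.09, *Kcna2* -0.18 to 0.13 and *Kcnc1* -0.09 to 0.04, in P35 CB *Kcna1* -0.12 to 0.03 and *Kcnj3* -0.06 to 0.12, in P14 HC *Kcna1* -0.05 to 0.04 and *Kcnd2* -0.11 to 0.06, and in P35 HC *Hcn2* -0.17 to 0.02. For genotype by age in CB they were *Kcna1* -0.14 to 0.07, *Kcna2* -0.27 to 0.06, *Kcnc1* -0.13 to 0.00, *Kcnd2* -0.03 to 0.13 and *Kcnj10* -0.09 to 0.10, and in HC *Kcnc1* -0.03 to 0.08, *Kcnd2* -0.01 to 0.15 and *Hcn2* -0.11 to 0.09. For genotype by region at P35 they were *Kcna1* 0.00 to 0.16 and *Kcnj10* 0.00 to 0.26. No paired analysis of CB and HC was made. The labels do not say which CB and HC libraries came from the same mouse, and no CB library shares its identifier with an HC library. P35 HC was the shallowest group, and low members there and in P35 CB were measured with least precision.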
